A study of Helianthus annuus with 2 samples.

Results

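The peaks described here are the H3K4me3 peaks of developing sunflower seeds that kept their place and their width in the peak lists of both stages, and they are called stable pairs. A stable pair consists of 1 peak of the list labelled 13 DAA (days after anthesis) and 1 peak of the list labelled 28 DAA. Both lie on chromosomes 1 to 17 and overlap by at least 1 bp, and neither overlaps another peak of the opposite list. Their summits, the positions with the most fragments, are at most 50 bp apart, and the 28 DAA peak is less than 1.5 times wider or narrower than the 13 DAA peak. This rule gave 8248 stable pairs. They make up 5.07% of the chromosomal peaks labelled 13 DAA (162824 in all) and 6.74% of those labelled 28 DAA (122415). Of all peaks that overlap exactly 1 peak of the opposite list, 37400 pairs in total and here called one-to-one pairs, the stable pairs are 22.1% (95% Wilson interval 21.6 to 22.5%). The summit condition was met by 57.5% of the one-to-one pairs and the width condition by 39.2%.

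H3K4me3, the trimethylation of lysine 4 on histone H3, is placed by histone methyltransferases of the Trithorax type. In plants it typically sits at the start of transcribed genes, in narrow to medium-wide peaks, and it is a widely used mark of active promoters. A peak with the same summit and width at both stages shows that the place and extent of the mark were alike, whereas its amount can still differ.

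The seeds came from the high-oleic sunflower line CAS-9, without any treatment, and were collected at 13 DAA, early in the synthesis of fatty acids, and at 28 DAA, late in it. Each stage is represented by 1 ChIP-Seq library made with an anti-H3K4me3 antibody, so no spread between replicates exists, no test between the stages was made, and differences describe these 2 libraries. Whole developing seeds were used, so a mark carried by more cells and a stronger mark per cell cannot be told apart, and peak lists hold no expression values by which the tissue could be checked. Each deposited list holds as many peaks as the study's text gives for the opposite stage, so stages are named here by the labels of the lists. If the labels were exchanged, each ratio of 28 DAA over 13 DAA would become its inverse, and each statement on which stage is higher would turn round. No gene annotation for this XRQ genome version was used here, so peaks are not assigned to genes. Positions refer to that version and are counted from 1.

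For each peak the lists give the fold enrichment at the summit, which is the fragments piled up there over those expected from the local background. The local background is the number of fragments expected from the surroundings of the peak and is never below the genome-wide value of the same list. The whole number of fragments at the summit and the local background were worked out from its p-value and fold enrichment, which succeeded for 100% of the peaks in both lists. The genome-wide background, the smallest local background in a list, was 2.1 fragments at 13 DAA and 2.3 at 28 DAA, and summit fragments and local backgrounds are given as multiples of it where lists are set side by side. The stable pairs were chosen by the measured positions and widths of their peaks, and fold enrichments, fragments and backgrounds come from the same 2 libraries, so all values below are descriptions.

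Most stable pairs were short. The median width was 236 bp at 13 DAA (quartiles 180 and 330 bp) and 251 bp at 28 DAA (193 and 377 bp). In 4940 stable pairs (59.9%) both peaks were at most 300 bp wide, in 676 (8.20%) both were above 500 bp, and in 39 (0.473%) both were above 1000 bp. The shortest peaks of the lists are 134 bp at 13 DAA and 161 bp at 28 DAA, so many stable pairs lay close to the shortest width the lists hold. The shortest width is thus itself larger at 28 DAA. Within the limits of the rule, and not independently of that difference, the 28 DAA peak was the wider one in 5833 pairs (70.7%). It began a median of 21 bp before the 13 DAA peak and ended a median of 21 bp behind it, so the extra width was shared by both sides. The 28 DAA peak contained the whole 13 DAA peak in 3920 pairs (47.5%), and the reverse held in 877 (10.6%). The shared stretch was a median of 75.3% of the stretch covered by either peak.

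The summits were a median of 20 bp apart (quartiles 9 and 32 bp). They fell on the same base in 142 pairs (1.72%), within 10 bp in 2315 (28.1%) and within 25 bp in 5008 (60.7%). The shift had no preferred direction, with a median of 0 bp. In both lists the summit lay near the middle of the peak, at a median of 48.7% of the width at 13 DAA and 48.9% at 28 DAA. No pair had the same start, end and summit in both lists. The 3 pairs with the same start and end were named after their values were seen. The first, on chromosome 4 from 50659657 to 50659817, had a fold enrichment of 4.09 at 13 DAA and 5.76 at 28 DAA. The second, on chromosome 2 from 66491785 to 66491957, had 5.04 and 5.72. The third, on chromosome 13 from 124073508 to 124073996, had 7.42 (95% Poisson interval 4.77 to 11.1) and 3.59 (2.47 to 5.04). The intervals of the fold enrichment overlapped between the lists in each of the 3.

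At the limits of the rule the values passed smoothly from stable pairs to their neighbours. The 487 pairs with summits 46 to 50 bp apart had a median fold ratio (28 DAA over 13 DAA) of 0.923, and the 491 pairs of like width with summits 51 to 55 bp apart had 0.922. At the upper width limit, the 584 pairs just inside had a median fold ratio of 1.10 and the 599 just outside also 1.10. At the lower width limit, the ratio was 0.791 in 117 pairs inside and 0.801 in 112 outside. No step in these values was therefore seen at the limits that define the stable pairs.

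The fold enrichment of the stable pairs was similar at both stages. Its median was 6.23 at 13 DAA (quartiles 5.16 and 7.74) and 5.66 at 28 DAA (4.49 and 7.68). The median ratio within a pair was 0.94 (95% interval of the median 0.934 to 0.947, quartiles 0.747 and 1.16), and the fold enrichment was higher at 28 DAA in 41.8% of the stable pairs. In the one-to-one pairs that were not stable, the median ratio was 1.17 and the fold enrichment was higher at 28 DAA in 65.4%. Intervals of medians and shares cover the sampling of peaks within these libraries only.

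The stable pairs stood at different ranks in the lists. At 13 DAA their median fold enrichment was above that of 80.0% of the chromosomal peaks, whereas at 28 DAA it was above that of 45.5%. For summit fragments these shares were 75.6% and 39.6%. For the width they were 69.7% and 41.6%. The rule used the width, and the median widths of the lists were 187 bp at 13 DAA and 282 bp at 28 DAA. The width shares therefore follow in part from the rule. Fold enrichment and summit fragments rose with width in stable pairs of up to 1000 bp in both lists. The shares for these 2 measures are therefore not independent of the width condition either. The same places thus stood high among the peaks labelled 13 DAA and slightly below the middle of those labelled 28 DAA. This was not particular to the stable pairs. One-to-one pairs of like width with summits over 50 bp apart had median fold enrichments of 5.81 and 5.34, against 5.15 and 5.91 in the lists. All one-to-one pairs that were not stable had 5.81 and 6.93, above the median of either list. Both peaks reached a q-value of 1e-10 or less in 4020 stable pairs (48.7%), against 39.8% of the other one-to-one pairs.

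A fold enrichment at least 1.5 times higher at 28 DAA was found in 660 stable pairs, 8.00% (7.44 to 8.61%), against 23.4% of all one-to-one pairs. A fold enrichment at least 1.5 times higher at 13 DAA was found in 1320 stable pairs, 16.0% (15.2 to 16.8%), against 9.41% of all one-to-one pairs. Stable pairs past this limit therefore lay more often on the 13 DAA side, while in all one-to-one pairs they lay more often on the 28 DAA side. This side depended on the width limit, since with a limit of 2 the shares of the stable pairs were 14.5% at 28 DAA and 12.5% at 13 DAA, and the median fold ratio was 1.01. Counting error alone is wide for single peaks, and 95% Poisson intervals of the fold enrichment lay apart in far fewer pairs. They lay apart with the higher value at 28 DAA in 210 stable pairs (2.55%, against 10.9% of all one-to-one pairs) and with the higher value at 13 DAA in 317 (3.84%, against 2.03%).

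**Figure D1:**
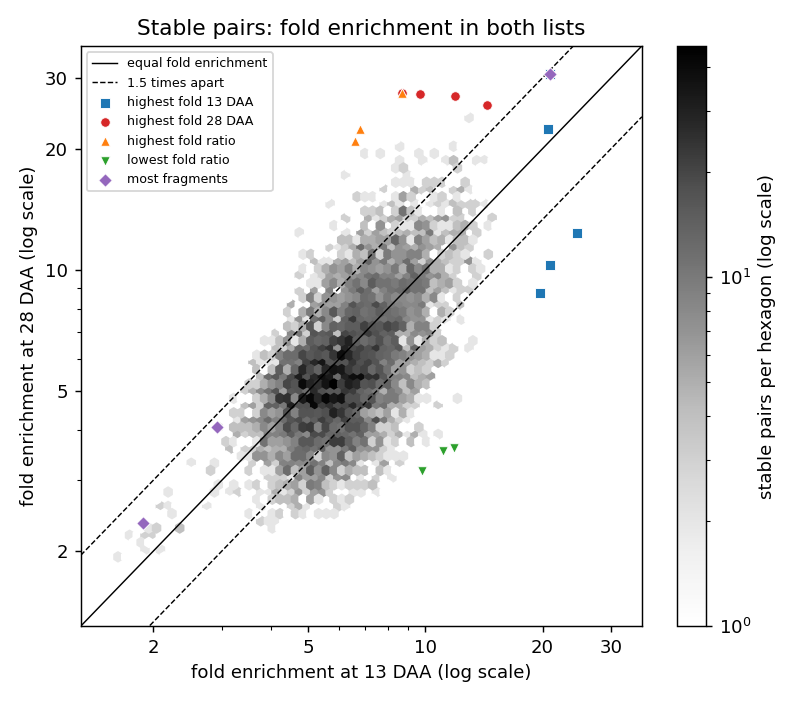
Fold enrichment of the 8248 stable pairs at 13 DAA (horizontal, log scale) and 28 DAA (vertical, log scale), with 1 hexagon per range of values, shaded by its number of pairs, and the named pairs as coloured symbols. Most pairs lie between the dashed lines, which mark values 1.5 times apart, 660 pairs lie on or above the upper line and 1320 on or below the lower one.

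The classes most like the stable pairs each meet 1 of the conditions of the rule. The 6395 one-to-one pairs of like width whose summits were over 50 bp apart had a median fold ratio of 0.957, with 7.35% past the limit at 28 DAA and 14.2% at 13 DAA, values near those of the stable pairs. The 12263 pairs with summits at most 50 bp apart that were at least 1.5 times wider at 28 DAA had a median fold ratio of 1.37, with 40.7% and 2.36%. These differences between classes were not tested.

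Fragment numbers differed more between the lists than fold enrichments. The summits of stable pairs had 24 fragments in the median at 13 DAA (quartiles 19 and 32) and 35 at 28 DAA (22 and 69). Over the genome-wide background, the median ratio of the summits was 1.4 for stable pairs and 2.99 for the other one-to-one pairs. Summits at least 1.5 times higher at 28 DAA by this measure made up 46.4% of the stable pairs, 3827 in number, against 66.6% of all one-to-one pairs. Those at least 1.5 times higher at 13 DAA made up 9.30%, 767 in number, against 7.39%. The local background, in multiples of the genome-wide one, was 1.3 at 13 DAA and 2.29 at 28 DAA in the median, with a median ratio of 1.62 for stable pairs and 2.97 for the others. The medians of summit and surroundings were therefore both higher at 28 DAA, and that of the fold enrichment, which divides the one by the other, was not. This did not hold throughout. In the 48.1% of stable pairs with a background ratio of at most 1.5, summits had 23 and 22 fragments in the median. Their median local background was 1.27 at 13 DAA and 1.13 at 28 DAA.

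**Figure D2:**
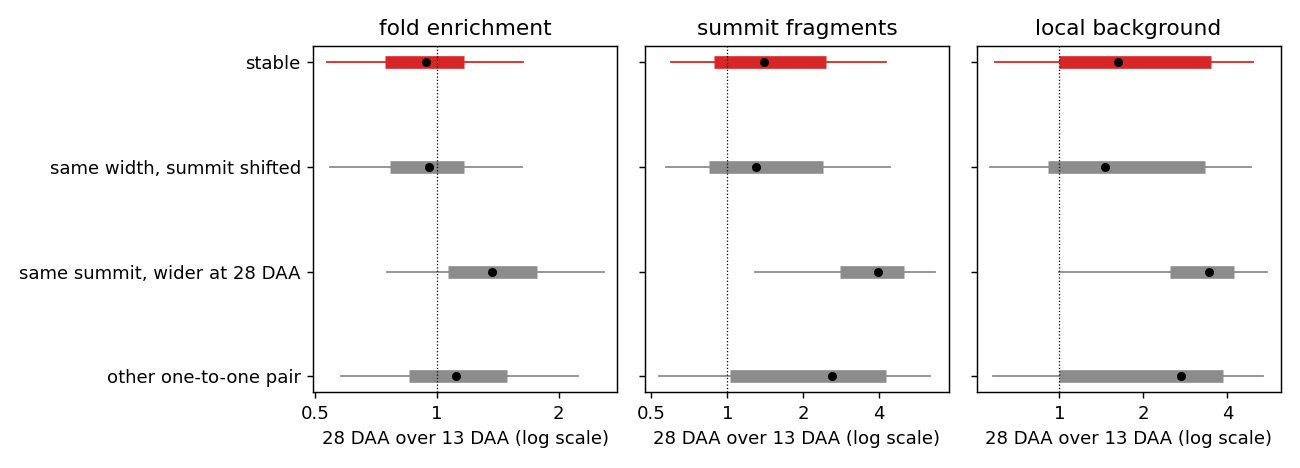
Ratio of 28 DAA over 13 DAA (log scale) for the fold enrichment, the summit fragments and the local background in the 4 classes of one-to-one pairs, with the median as a dot, the quartiles as a thick bar and the range from the 5th to the 95th percentile as a thin line. Medians of the stable pairs were 0.94, 1.4 and 1.62, those of the pairs wider at 28 DAA 1.37, 3.94 and 3.44.

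Across the 8248 stable pairs, the log2 fold enrichments of both lists had a Pearson r of 0.61 and a Spearman rho of 0.57. For the log2 summit fragments the values were 0.57 and 0.54, and for the log2 local background 0.46 and 0.45. One-to-one pairs of like width with summits over 50 bp apart had a Spearman rho of 0.53, 0.51 and 0.43 for the 3 measures. Pairs with summits at most 50 bp apart that were at least 1.5 times wider at 28 DAA had 0.45, 0.59 and 0.66. Likeness between the lists was thus not particular to the stable pairs. These correlations are across peaks that share their libraries, and peaks are not independent replicates.

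Ratios of the local backgrounds gathered at values around and below 1 and again at values of 3 to 4. Among the stable pairs, 3967 (48.1%) had a ratio of at most 1.5, 990 (12%) lay between 1.5 and 2.5, and 3291 (39.9%) were above 2.5, limits that were chosen after the values were seen. Below 1, the most stable pairs, 556, had a ratio from 0.71 to 0.84. A ratio from 1 to 1.19 was found in 1399 stable pairs, 842 of which were at the genome-wide background in both lists. A ratio from 1.68 to 2 was found in 298, and one from 3.36 to 4 in 920. The other one-to-one pairs showed the same gap but a different balance, with 28.5% up to 1.5 and 59.0% above 2.5.

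**Figure D3:**
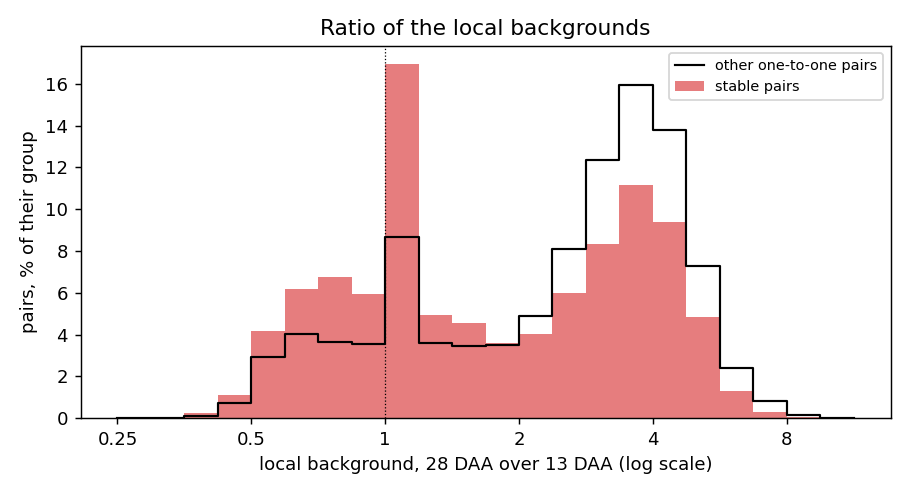
Share of pairs (vertical, in percent of their group) by the ratio of the local background at 28 DAA over that at 13 DAA (horizontal, log scale), for the 8248 stable pairs as bars and the 29152 other one-to-one pairs as a line. Among the stable pairs, 16.96% have a ratio from 1 to 1.19 and 11.2% one from 3.36 to 4, and among the others 8.68% and 16.0%. A smaller maximum lies below 1 in both groups.

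Stable pairs at the low and the high end of this ratio differed in height, width and neighbours. Those with a background ratio of at most 1.5 had 23 fragments at 13 DAA and 22 at 28 DAA in the median, and median widths of 215 and 219 bp. Their nearest neighbouring peak was a median of 7405 bp away at 28 DAA, and their median fold ratio was 1.02 (1.01 to 1.03). Those with a ratio above 2.5 had 27 and 77 fragments, widths of 287 and 345 bp, and the nearest neighbour at 28 DAA 499 bp away, with a median fold ratio of 0.839 (0.821 to 0.853). A fold enrichment at least 1.5 times higher at 13 DAA was found in 5.39% of the pairs up to 1.5 and 28.5% of those above 2.5, and one at least 1.5 times higher at 28 DAA in 8.80% and 6.02%. The local background is the divisor of the fold enrichment, so these values are not independent of each other. In the other one-to-one pairs with a ratio above 2.5, the median fold ratio was 1.22, on widths of 224 and 550 bp.

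The share of stable pairs among one-to-one pairs changed with the height of the summit. Sorted by the fragments at 13 DAA over the genome-wide background, it rose at each step from 17.1% (16.4 to 17.8%) for summits up to 9 times to 44.9% (40.5 to 49.3%) for those above 30 times. The 219 stable pairs of this highest group were unlike those of the group below it. Their median fold enrichments were 4.84 at 13 DAA and 4.18 at 28 DAA, with a median background ratio of 0.682. In the 736 stable pairs from 20 to 30 times these values were 9.06, 8.23 and 3.34. Sorted by 28 DAA the share did not follow 1 direction. It was 31.8% for summits up to 10 times, 33.1% from 10 to 20 times, 10.3% from 30 to 50 times and 10.4% from 50 to 75 times, and 26.9% (24.9 to 29.1%) above 75 times. The width condition moved most. It was met by 62.1% of the one-to-one pairs with the lowest 28 DAA summits, by 17.8% of those from 30 to 50 times and by 45.4% of those above 75 times, whereas the summit condition was met by 45.9%, 59.3% and 66.1%. Peaks of the shortest widths, 134 bp at 13 DAA and 161 bp at 28 DAA, always meet the width condition with each other. The stable pairs with the lowest 28 DAA summits had median widths of 199 and 195 bp. Their share is therefore not independent of the shortest widths.

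**Figure D4:**
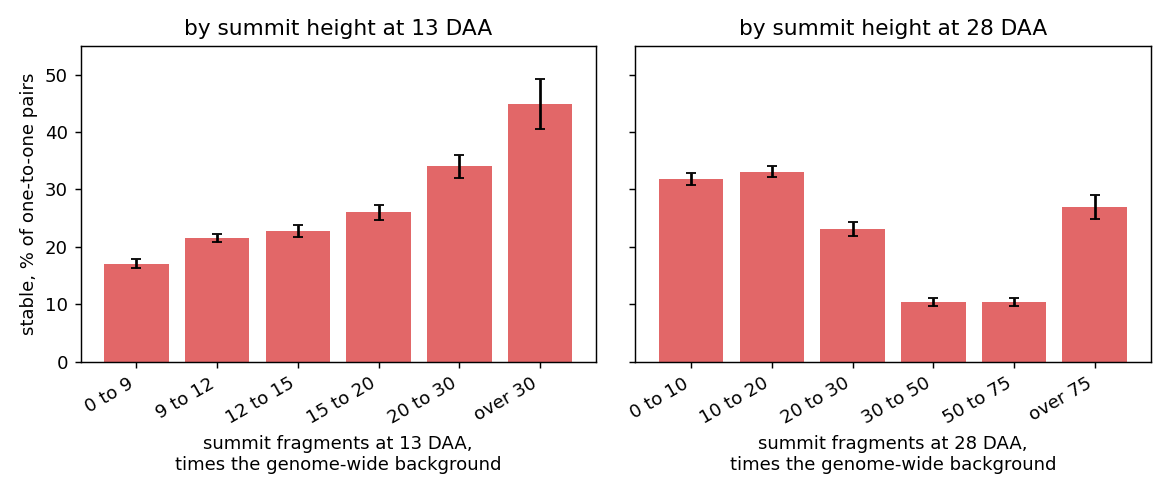
Share of stable pairs among one-to-one pairs (vertical, in percent, with 95% Wilson intervals) by the height of the summit (horizontal, fragments as multiples of the genome-wide background of the list) at 13 DAA on the left and 28 DAA on the right. At 13 DAA the share rises from 17.1 to 44.9%, and at 28 DAA it falls from 33.1 to 10.3% and returns to 26.9% for the highest summits.

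The 458 stable pairs with a 28 DAA summit above 75 times the genome-wide background were wide and strong in both lists. Their median width was 532 bp at 13 DAA and 690 bp at 28 DAA, and their median fold enrichment was 8.97 and 9.34. They had 49 and 187 fragments at the summit and a median fold ratio of 1.03. With the mean width of a pair, the fold enrichment at 13 DAA rose from a median of 5.49 in the 2583 stable pairs of up to 200 bp to 8.04 in the 882 of 500 to 1000 bp, and that at 28 DAA from 4.94 to 8.78. The 85 pairs above 1000 bp were lower again, at 7.55 and 7.42. The fold ratio was 0.907 in the narrowest group and 1.07 in that of 500 to 1000 bp.

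The highest fold enrichments of both lists were partly in the same stable pairs. Of the 100 stable pairs with the highest fold enrichment at 13 DAA, 20 were among the 100 highest at 28 DAA. No such number is given here for the other one-to-one pairs, so it is not read as particular to the stable pairs. A stable pair on chromosome 6 was the third highest at 13 DAA, where it extended from 88877195 to 88877491, and the highest at 28 DAA, where it extended from 88877176 to 88877503. Its fold enrichment was 20.9 at 13 DAA (95% Poisson interval 17.5 to 24.8) and 30.6 at 28 DAA (26.6 to 35.0). It had 131 and 210 fragments at summits 12 bp apart, and its local background was 2.53 and 2.56 times the genome-wide one. It also belonged to the 3 stable pairs that were highest by the smaller of their summit fragments at both stages. The pair on chromosome 5 from 199354289 to 199354692 was high at both stages too, with fold enrichments of 20.6 (16.3 to 25.7) and 22.4 (19.6 to 25.5), whose intervals overlapped.

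The other 3 of the 5 highest pairs at 13 DAA are given as a description, because a lower value in the other list follows in part from their choice. The highest, on chromosome 12 from 163552781 to 163553062, had a fold enrichment of 24.5 (19.4 to 30.7) at 13 DAA and 12.4 (9.35 to 16.1) at 28 DAA. On chromosome 11, the pair from 114098865 to 114099112 had 20.9 (16.7 to 25.9) and 10.3 (7.86 to 13.3), with both summits on base 114098997. On chromosome 13, the pair from 193296213 to 193296562 had 19.7 (15.1 to 25.2) and 8.75 (6.83 to 11.0). In this last pair the summit fragments were 60 and 69, while the local background was at the genome-wide value at 13 DAA and 3.04 times that value at 28 DAA.

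The same holds for the other 4 of the 5 highest pairs at 28 DAA. On chromosome 2 from 123265712 to 123265946, the fold enrichment was 8.71 (5.80 to 12.6) at 13 DAA and 27.5 (23.0 to 32.8) at 28 DAA. On chromosome 11 from 40959255 to 40959491 it was 9.68 (6.59 to 13.8) and 27.3 (22.4 to 32.9). The pair on chromosome 14 from 22404438 to 22404681 had 11.9 (8.46 to 16.4) and 27.1 (23.2 to 31.5), and that on chromosome 8 from 47201523 to 47201835 had 14.4 (11.1 to 18.3) and 25.6 (22.0 to 29.6). The pairs on chromosomes 11 and 14 stood alone, whereas those on chromosomes 2 and 8 had another peak within 10 kb in each list. The nearest peak at 28 DAA was 37899 bp from the pair on chromosome 11 and 120354 bp from the pair on chromosome 14.

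Among the 4020 stable pairs with q-values of 1e-10 or less at both stages, the fold ratio was highest on chromosome 3 from 18576806 to 18577020, at 3.31, with 20 fragments at 13 DAA and 73 at 28 DAA and the genome-wide background in both lists. On chromosome 12 from 15580305 to 15580594 the ratio was 3.18, and the pair on chromosome 2 named above followed with 3.16. The lowest ratio was 0.305 on chromosome 13 from 180379244 to 180379508, where the summit had 52 fragments at 13 DAA and 47 at 28 DAA, while the background rose from 1.65 to 5.34 times the genome-wide one. On chromosome 3 from 60421496 to 60421759 the ratio was 0.319, with 43 and 48 fragments. On chromosome 15 from 11663297 to 11663625 it was 0.322, with 53 and 70 fragments. The pairs with the highest ratios thus differed in summit fragments, and those with the lowest ratios mainly in the local background. They were chosen by the ratio of these quantities, so this is a description. In the pairs with the highest and the third highest ratio, the local background at 13 DAA was at the genome-wide value. It cannot fall below that value, so a high ratio there could come only from the summit.

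The widest stable pair, on chromosome 12, extended over 3154 bp from 156737888 to 156741041 at 13 DAA and over 3020 bp from 156737951 to 156740970 at 28 DAA. Its fold enrichment was low, 3.81 and 4.29, and its local background was 14 and 7.68 times the genome-wide one. The next widest pair, with 1359 and 1749 bp, began at 115643408 on chromosome 11 and had a fold enrichment of 7.55 and 5.84. The third, with 1304 and 1621 bp, began at 656621 on chromosome 12 and had 4.79 and 4.76. Pairs were also ranked by the smaller of their summit fragments at both stages, and besides the pair on chromosome 6 the highest by this measure were on chromosome 12. The pair from 161616821 to 161617253 had 149 and 139 fragments but a fold enrichment of only 2.92 and 4.06, and the pair from 152642217 to 152642511 had 162 and 137 fragments and a fold enrichment of 1.87 and 2.35.

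The stable pairs followed the one-to-one pairs along the genome. Their share of the one-to-one pairs was between 19.0% on chromosome 8 (17.3 to 20.8%) and 24.6% on chromosome 12 (22.9 to 26.5%), with a median of 21.8%. Their density was between 2.19 per Mb on chromosome 2 and 3.35 per Mb on chromosome 12, with the end of the last peak taken as the chromosome's length. The median fold ratio lay below 1 on each of the 17 chromosomes, between 0.882 on chromosome 7 and 0.978 on chromosome 8. When each chromosome was divided into 10 equal parts, the number of stable pairs was 1252 in the last part and 632 in the fourth, while their share of the one-to-one pairs stayed between 20.5% and 22.6%. Within 5 Mb of either end the share was 23.3% (770 of 3306), and elsewhere 21.9%.

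In terms of neighbours, the stable pairs lay in less crowded places at 28 DAA. The nearest other peak of the list labelled 28 DAA was a median of 1857 bp away, against 969 bp for the other one-to-one pairs and 791 bp for all chromosomal peaks, and it was within 1000 bp for 40.4% of the stable pairs and 50.4% of the others. In the list labelled 13 DAA the medians were 3811, 4197 and 5505 bp, so there the stable pairs lay closer to their neighbours than a peak of the list usually did. Split by the background ratio, the medians at 28 DAA differed less. At a ratio of at most 1.5 they were 7405 bp for stable pairs and 8147 bp for the other one-to-one pairs. Between 1.5 and 2.5 they were 1634.5 and 1510.5 bp, and above 2.5 they were 499 and 418 bp. In 744 stable pairs (9.02%) no other peak lay within 10 kb in either list. That share is not given here for the other one-to-one pairs. Per list, the nearest peak was over 10 kb away for 21.1% of stable pairs and 21.3% of the others at 13 DAA. At 28 DAA these shares were 21.8% and 18.3%. The 744 lone pairs had median fold enrichments of 6.01 and 6.36 and a median fold ratio of 1.12. Their local backgrounds were 1.22 and 1.00 times the genome-wide one.

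Stable pairs were in general scattered, with a median of 196795 bp between neighbouring ones, but some lay close together. Of the 3007 windows of 1 Mb, 393 had no stable pair, and those with any had a median of 3. The densest window, on chromosome 11 from 25000001 to 26000000, held 28 stable pairs of 62 one-to-one pairs, from 121 peaks at 13 DAA and 122 at 28 DAA. Their median fold enrichment was 5.16 and 5.20. The second window, on chromosome 12 from 161000001 to 162000000, held 22, with a median fold enrichment of 2.05 and 2.22 and a local background 28.0 and 16.5 times the genome-wide one. The third, on chromosome 13 from 149000001 to 150000000, held 19.

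Within such windows the stable pairs formed runs. Runs of at least 5 stable pairs, each no more than 20 kb from the next, numbered 18 on 11 chromosomes and held 131 stable pairs, a definition chosen after the positions were seen. The longest in number was on chromosome 11 from 25870851 to 25972783, where 19 of 25 one-to-one pairs were stable. In this run the local background was lower at 28 DAA in each of the 19, with a ratio between 0.615 and 0.807. On chromosome 13 from 149839883 to 149947397, 17 of 24 one-to-one pairs were stable, with a median background ratio of 0.729. In 15 of the 18 runs the median background ratio was below 1, against 1.62 over all stable pairs. The 3 exceptions were a run on chromosome 4 starting at 16793798 (median ratio 1.29), a run on chromosome 16 starting at 27961548 (1.33) and a run on chromosome 1 starting at 146701905 (3.69). In 12 runs the local background at 13 DAA was above 3 times the genome-wide one.

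In stable pairs with a high local background at 13 DAA, this background was mostly lower at 28 DAA. At 13 DAA the local background was above 3 times the genome-wide one in 554 stable pairs (6.72%). In 339 of them it was lower at 28 DAA. The 554 pairs had a median ratio of 0.737, with quartiles of 0.594 and 2.75. Their median background was 3.68 at 13 DAA and 6.61 at 28 DAA. These pairs, and those above 20 times, were chosen by a high value at 13 DAA. A lower one at 28 DAA follows in part from that choice. The same share is not given here for other one-to-one pairs of such a background. Over all stable pairs the local background was lower at 28 DAA in 24.4%, against 14.9% of the other one-to-one pairs. In 72 stable pairs it was above 20 times at 13 DAA, with 38 of them on chromosome 12 and 12 on chromosome 14. In each of these 72 the local background was lower at 28 DAA, with a ratio between 0.546 and 0.682 and a median of 0.574. They had many fragments, a median of 126 and 92, but fold enrichments of only 2.09 and 2.30. The share of stable pairs among one-to-one pairs was 40.7% (33.7 to 48.0%) at this background and 22.2% at the genome-wide one.

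The one-to-one pairs on the organelle sequences, which were not counted among the stable pairs, give a value of background ratios outside the nuclear chromosomes. The 49 on the mitochondrial sequence had a median ratio of 1.32 (range 1.24 to 1.43), and the 29 on the plastid sequence one of 0.712 (0.626 to 1.00). The 18 runs had median ratios from 0.462 on chromosome 3 to 3.69 on chromosome 1. Most of these medians lay within the plastid range. This was not particular to the runs. The 554 stable pairs with a high local background at 13 DAA had a median ratio of 0.737, also within that range. Over all stable pairs the local background was lower at 28 DAA in 24.4%. The run medians of 1.29 on chromosome 4 and 1.33 on chromosome 16 lay within the mitochondrial range. Medians of 0.462, 0.567, 0.568 and 3.69 lay outside both. The sequence of these places was not used here, and whether they resemble organelle DNA was not tested.

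**Figure D5:**
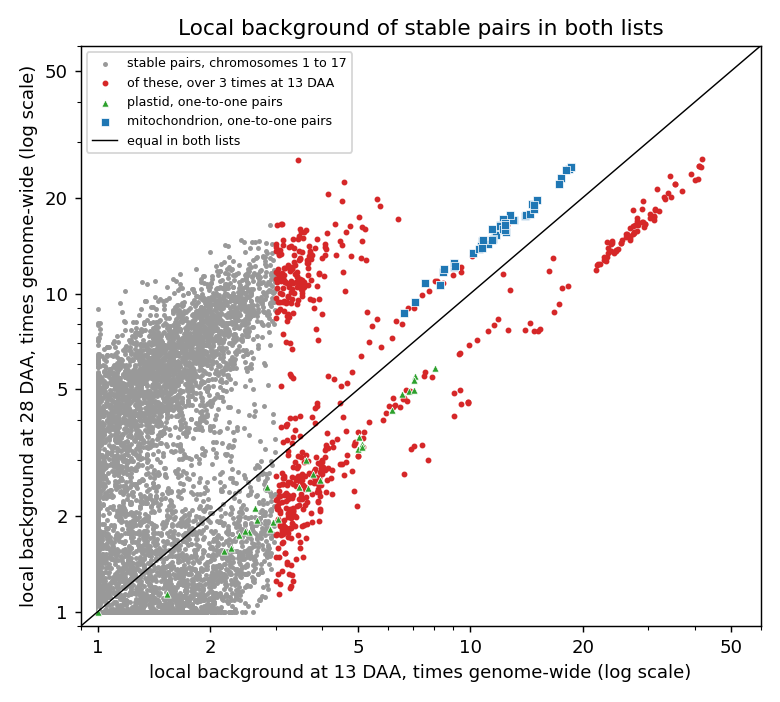
Local background of the 8248 stable pairs at 13 DAA (horizontal) and 28 DAA (vertical), both as multiples of the genome-wide value on log scales, with those above 3 times at 13 DAA in red and the organelle one-to-one pairs as triangles and squares. Most pairs lie either near the diagonal or well above it, and the 72 pairs above 20 times at 13 DAA lie on a narrow band below it.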

How the data were processed

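H3K4me3 ChIP-Seq of developing sunflower seeds was analyzed from the peak lists of 2 stages, with 1 library each. The authors mapped filtered reads to the XRQ genome with BWA, removed duplicates with Picard and called peaks with MACS2. Whether an input control was used or immunoprecipitations were pooled is not stated in these sources. The score deposited by the authors is 10 times the −log10 q-value without its decimals. The deposited fold enrichment is a ratio over the local background. The authors' p-values and q-values were deposited as −log10. Summit fragments and local background were solved from fold enrichment and p-value (pseudocount 1, tolerance 0.001 on −log10 p), a step tested on simulated data. Precision is given as 95% Wilson, order-statistic or Poisson intervals, which cover counting error only. The total number of fragments per library was not given. Peaks within 50 bp and 1.5-fold width were taken as stable.

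The stable pairs, their limits and the lists of named peaks were chosen with earlier results of these data known. Named were the 5 stable pairs with the highest fold enrichment at each stage, the 3 with the highest and the 3 with the lowest fold ratio at a q-value of at most 1e-10, the 3 widest, the 3 with the most summit fragments (smaller of both stages), those with identical positions, and the densest 1 Mb window. Alternatives changed the summit and width limits, the q-value, the number of peaks, the overlap, the sequences and the fold measure. Scripts ran in Python 3.11.15 with pandas 2.3.3, numpy 2.4.6, matplotlib 3.10.9 and scipy 1.17.1.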

Additional observations from a re-analysis of the deposited data

Results flagged for a closer look

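By the same rule, 23 stable pairs were found on the mitochondrial sequence (of 49 one-to-one pairs) and 18 on the plastid sequence (of 29). They drew attention as peaks outside the nuclear chromosomes, which the comparisons above do not use.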

How the results depend on the processing

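A number of pairs was counted as unchanged within 1.5 times of the reported one, and a share or median within its 95% interval. By this measure 25 values under the alternatives set in advance were unchanged and 25 were not. A summit limit of 25 bp gave 5008 stable pairs (13.4% of one-to-one pairs), and one of 100 bp gave 11451 (30.6%). A tighter width limit gave 4372 stable pairs (11.7%), a median fold ratio of 0.892, and 4.83% and 19.99% past the fold limit at 28 DAA and 13 DAA. A width limit of 2 gave 13683 (36.6%), 14.5% and 12.5%, and the median fold ratio reversed to 1.01. A q-value of at most 1e-10 gave 4033 stable pairs (23.7%) and 8.98% past the limit at 28 DAA. Lists of equal length, cut to the strongest peaks, gave 22.7%, a median fold ratio of 0.925 and 17.2% past the limit at 13 DAA, and an overlap of 50% of both peaks a share of 36.5%. With a fold limit of 2, 1.62% were past it at 28 DAA and 3.03% at 13 DAA. With fragments over the genome-wide background in place of the fold enrichment, the median ratio reversed to 1.4, with 46.4% and 9.30%. The side of the median fold ratio thus depends on the width limit and on the measure. Without pairs of a high local background, an alternative chosen after seeing the data, there were 7694 stable pairs (21.6%) with a median fold ratio of 0.936, and 8.50% and 16.6% past the fold limit, within the same tolerances.

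No paired analysis was possible because each stage has a single library. The precision of 1 peak is set by its summit fragments, 24 at 13 DAA and 35 at 28 DAA in the median stable pair. Which stage each list belongs to was taken from its label, and the genes at the peaks and the sequence of the places with a high background were not resolved here.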
